A study of Mus musculus with 16 samples.

Results

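The CD4+ T cells without the IL-4 reporter signal were compared between the lung-draining mediastinal lymph node (medLN) and the gut-draining mesenteric lymph node (MLN) of the same infected mice. A barcode of the IL-4eGFP- library was kept with more than 500 UMIs (unique molecular identifiers, each standing for 1 captured RNA molecule), more than 500 genes and less than 7% mitochondrial UMIs. Its leading hashtag also had to hold at least 80% of the hashtag UMIs, with at least 10 of them. This left 8932 of the 10080 barcodes of that library, and the medLN and MLN run held 19683 barcodes with the IL-4eGFP+ library included. They comprised 2248 cells of the medLN of mouse 1, 2221 of the medLN of mouse 2, 2263 of the MLN of mouse 1 and 2200 of the MLN of mouse 2.

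All cells came from 2 4get/C57BL/6 mice aged 10 weeks, at day 10 after infection with the roundworm Nippostrongylus brasiliensis (Nb), which passes through the lung before it settles in the gut. In 4get mice eGFP is expressed from the Il4 locus, so that it marks cells that transcribe Il4 and not secretion of the cytokine. The IL-4eGFP- CD4+ cells were sorted by flow cytometry and sequenced from the 5' end of transcripts in 1 library for both organs and both mice, and no uninfected mouse was part of the comparison. The IL-4eGFP+ cells of the same nodes, 8172 after the same filters, served only for comparison.

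The 4 samples inside the library were told apart by antibody-bound DNA hashtags, and the organ and mouse of every cell rest on these sequences. Each was 15 bases long, and any 2 of them differed at 11 to 13 positions, counted without gaps.
medLN, mouse 1: acccaccagtaagac
medLN, mouse 2: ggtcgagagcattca
MLN, mouse 1: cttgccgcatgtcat
MLN, mouse 2: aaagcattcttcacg

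CD4+ T cells outside the Th2 gate of an infected lymph node are mostly naive cells, with regulatory T cells (Tregs, defined by the transcription factor Foxp3) and cells of other activated or memory types among them. The chemokine receptor Ccr7 brings naive T cells from the blood into lymph nodes. Dendritic cells of the gut make retinoic acid, which induces the small-intestine homing receptor Ccr9 on T cells primed there, whereas the integrin beta 1 chain (Itgb1) pairs with several alpha chains and is associated with entry into other tissues.

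The samples were of even depth, with 8023403 to 8119991 UMIs each in total and a median of 3255 to 3385.5 UMIs per cell. CD3 epsilon (Cd3e) stood at 999 to 1046 CPM, which is UMIs scaled to a sample total of 1000000 with T-cell receptor genes left out of the total. Il4 was at 0.250 and 0.375 CPM in the medLN samples (2 and 3 UMIs) and had 0 UMIs in both MLN samples, and Il5 and Il13 had 0 UMIs in every sample. Of the 2 CD8 genes examined, Cd8a had 2 to 25 UMIs per sample. Cd8b1 had 191, 174, 175 and 144 UMIs in medLN 1, medLN 2, MLN 1 and MLN 2. Among the kept barcodes 66 held no UMI of Cd3d, Cd3e or Cd3g (19, 15, 15 and 17 in medLN 1, medLN 2, MLN 1 and MLN 2), and 115 barcode sequences occurred in both the IL-4eGFP- and the IL-4eGFP+ library. Of cells near the hashtag limit, the lowest share kept was 80.007% and the highest left out was 79.952%.

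Counts were summed per organ and mouse and tested with edgeR's quasi-likelihood test with the mouse as a block and Benjamini-Hochberg adjustment. Of 10739 genes tested, 66 passed an adjusted p of 0.05, which is 0.615% of all tested. In medLN 54 genes were higher (0.503%) and 12 were lower (0.112%) than in MLN. The median log2 fold change over all genes was -0.00189 and the median of its absolute size 0.0889, so that for most genes the organs were close. The direction was the same in both mice for 65 of the 66 genes, the exception being the immunoglobulin gene Igkv17-121. CPM did not overlap between the organs for 61 of the 66, against 37.5% of all genes tested. With 2 mice the fit rests on 1 residual degree of freedom per gene plus the spread shared across genes, and the number of calls moved with it: without the mouse block 17 genes passed (0.158%), and all 17 were among the 66. These 17 were Itgb1, S100a6, Ahnak, Cd83, Nrp1, Ccr9, Rilpl2, Tigit, Tnfrsf4, Fam129a, Ikzf2, Lgals1, S100a4, Cdc25b, Ly6c2, Siglech and Ly6d. Without MLN replicate 2, which leaves 1 MLN sample and no block, 5 genes passed in all and 2 of the 66 remained. In such summed counts a smaller share of cells of a type and less RNA per cell cannot be told apart.

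**Figure D1:**
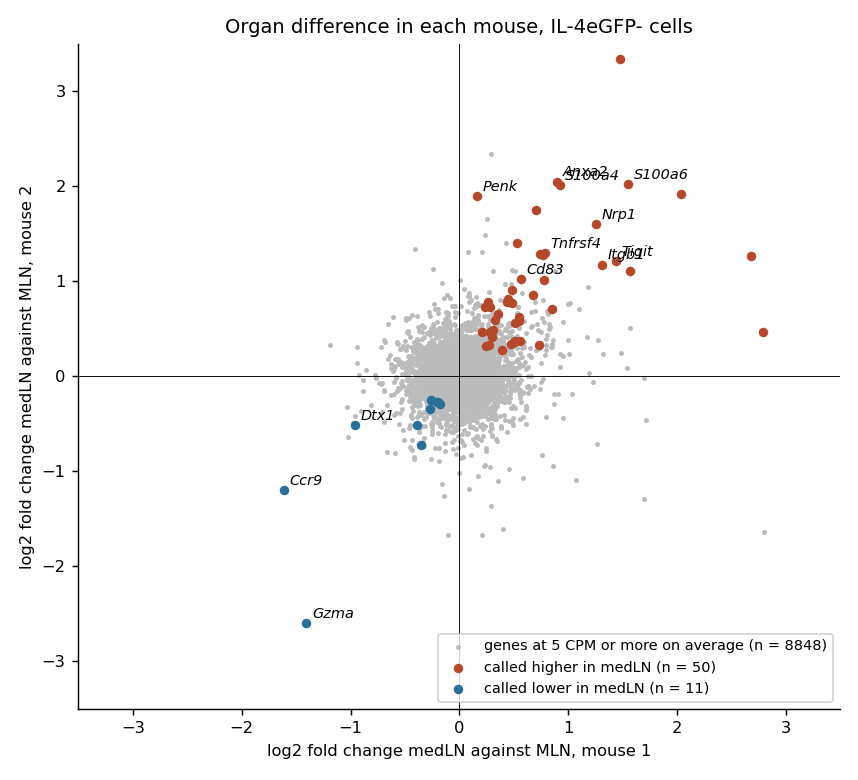
Log2 fold change of medLN against MLN in mouse 1 (x axis) and mouse 2 (y axis) for the 8848 genes at 5 CPM or more on average, with the 50 genes called higher in medLN in red and the 11 called lower in blue. The axes end at 3.5, which leaves out 7 genes, 6 of them called. Itgb1, S100a6 and Nrp1 stood above 1 in both mice and Ccr9 and Gzma below -1 in both.

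The integrin chain Itgb1 was the gene with the steadiest difference. Its level was 74.0 CPM in medLN of mouse 1 and 68.7 in medLN of mouse 2, against 29.2 and 28.8 in the MLN of the same mice. The medLN samples were thus 2.37-fold higher, or by 1.24 ± 0.08 on the log2 scale (adjusted p = 6.13e-07 in edgeR), and the adjusted p without the mouse block was 0.000949. The ± after a log2 value, here and below, is the standard error (SE) implied by the edgeR test, which shares spread across genes. It does not measure the spread between the 2 mice. A UMI of Itgb1 was seen in 13.0% and 13.3% of medLN cells and in 8.09% and 7.73% of MLN cells. Itgb1 was called in the same direction in 20 of 21 alternative analyses and reached an adjusted p of 0.0158 without MLN replicate 2. In the remaining one, DESeq2 with its own filter, it had no adjusted p. The co-receptor neuropilin-1 (Nrp1), found on thymus-derived Tregs among other cells, lies on the same stretch of chromosome 8 (GRCm38, GENCODE M21, plus strand, 128358604 to 128503363; Itgb1 at 128685654 to 128733200). Nrp1 stood at 25.4 and 23.3 CPM in medLN and at 10.4 and 7.24 CPM in MLN, a log2 difference of 1.41 ± 0.14 (adjusted p = 7.13e-05).

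Ccr9, the receptor for the small-intestine chemokine CCL25, went the other way. It stood at 4.63 and 5.63 CPM in medLN and at 14.0 and 12.4 CPM in MLN (37, 45, 113 and 99 UMIs), which makes a log2 difference of -1.41 ± 0.19 (adjusted p = 0.00106 in edgeR and 0.0303 without the block). Both MLN samples were above both medLN samples. Only a small minority of cells held a Ccr9 UMI, 1.02% and 1.22% of medLN cells and 2.39% and 2.77% of MLN cells. Of the medLN UMIs of Ccr9, 11 and 8 came from barcodes without CD3, against 0 in MLN. The other gut-homing genes were less clear, since Ccr9 was the only one of 11 tested members of the gut homing and retinoic acid list to pass. Among all genes tested 0.112% were called lower. The alpha 4 integrin chain Itga4 (130, 120, 121 and 112 CPM in medLN 1, medLN 2, MLN 1 and MLN 2) and its partner Itgb7 (260, 275, 273 and 259 CPM) overlapped between organs. Lztfl1, a gene next to Ccr9 in the genome, was at 12.3 and 13.8 CPM in medLN and 17.7 and 18.5 in MLN and did not pass (adjusted p = 0.113).

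Genes of the activation and effector memory list made up the largest block of calls. Of 21 tested members of that list 12 were higher in medLN and 0 lower, with a median log2 fold change of 0.38 beside -0.00189 over all genes. Over all genes tested 0.503% were higher. DESeq2 called 2 of the 21, and 3 without its own filter. Without the cells that held a Foxp3 UMI, 4 of the 21 were higher (Itgb1, Ahnak, Cd44 and Ly6c2) and 0 lower, with a median of 0.20. The list included the calcium-binding S100 protein S100a6. It was at 72.3 and 65.5 CPM in medLN and at 24.1 and 15.2 in MLN, a log2 fold change of 1.76 ± 0.10 (adjusted p = 3.68e-07). Its neighbour on chromosome 3, S100a4 (90603771 to 90606045, S100a6 at 90612882 to 90624181, both on the plus strand), was at 20.6 and 27.3 against 10.6 and 6.36 CPM, a log2 fold change of 1.44 ± 0.19 (adjusted p = 0.00108). Barcodes without CD3 held 24 of 165 and 39 of 218 S100a4 UMIs in medLN, and 24 of 86 and 31 of 51 in MLN. Without those barcodes the log2 fold change of S100a4 was 1.93. In a second S100 cluster of that chromosome, S100a11 (93520488 to 93526287) was at 122 and 130 against 96.7 and 92.4 CPM and S100a10 (93555080 to 93564643) at 377 and 379 against 303 and 261 CPM. Both passed, with log2 fold changes of 0.36 and 0.37 (adjusted p = 0.00831 and 0.00201). In a single medLN cell of mouse 1 80 of the 578 S100a6 UMIs were found, and without the highest cell of every sample the levels were 62.4 and 57.3 against 20.7 and 14.0 CPM.

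The same list held Anxa2, an annexin that binds S100a10, at 19.4 and 24.1 CPM in medLN and 10.1 and 5.49 CPM in MLN (log2 fold change 1.42 ± 0.20, adjusted p = 0.00181). The large scaffold protein Ahnak stood at 33.8 and 38 against 19.4 and 14.9 CPM (1.01 ± 0.12, adjusted p = 0.000521). The hyaluronan receptor Cd44 was at 32.6 and 33.5 against 22.9 and 18.6 CPM (0.62 ± 0.11, adjusted p = 0.01). None of these 3 genes overlapped between organs, and neither did 37.5% of all genes tested. Itgb1, galectin-1 (Lgals1), the filament protein vimentin (Vim), Cd82 and Ly6c2 were also among the 12. The surface protein Ly6c2, also expressed by myeloid cells, was at 8.51 and 8.13 CPM in medLN and 1.98 and 2.00 in MLN (log2 fold change 2.00 ± 0.26). Of its UMIs 37 of 68 and 27 of 65 in medLN came from barcodes without CD3, against 0 of 16 in each MLN sample. Without those barcodes the log2 fold change of Ly6c2 was 1.06 and did not pass (adjusted p = 0.084).

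**Figure D2:**
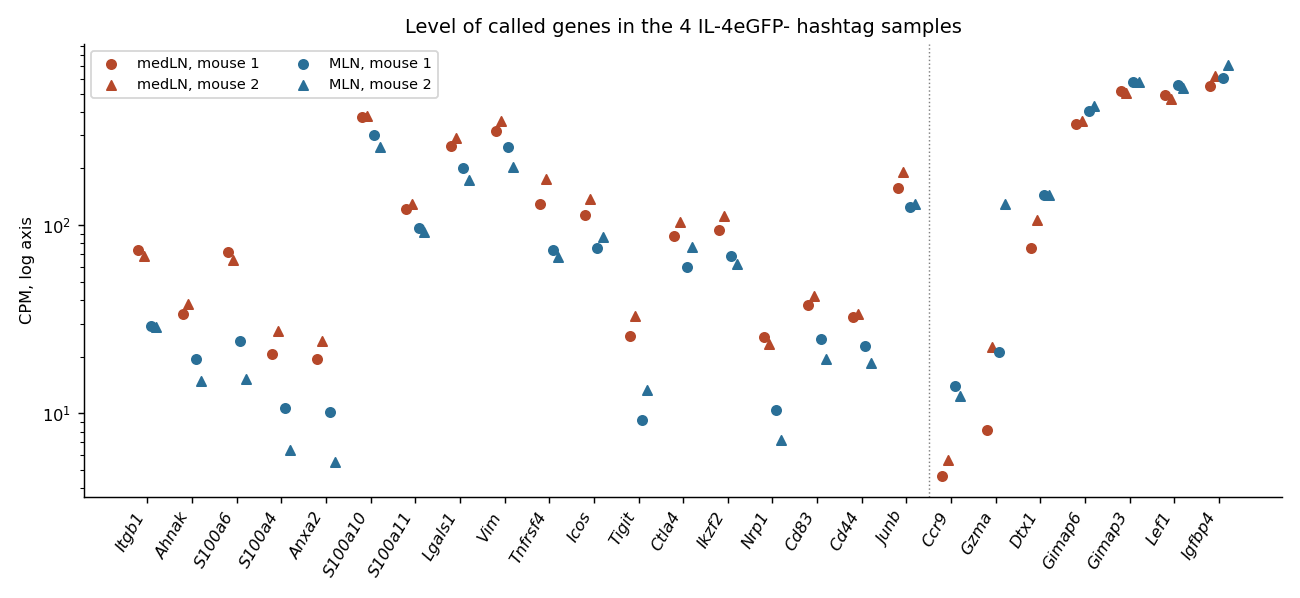
CPM on a log axis for 25 called genes in the 4 IL-4eGFP- samples, medLN in red and MLN in blue, circles for mouse 1 and triangles for mouse 2, with genes higher in medLN left of the dotted line. Gzma and Igfbp4 are the genes shown whose organs overlap.

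The promoters of S100a11 and Anxa2 are shown because both genes rose in medLN and both hold TGAGTCA, marked in capitals. This is a form of TGA(G/C)TCA, the core to which AP-1 factors such as JunB bind. Counted below is the wider motif TGANTCA, where N is any base, which reads the same on both strands. Each runs from 250 bases before to 50 bases after the RefSeq transcript start on GRCm38.p6. Of the 36 genes higher in medLN with a promoter given by RefSeq, 3 held the motif (8.33%), and of the 10 lower genes 0. The share was 4.39% of all 8429 tested genes with a promoter and 7.93% of all 27025 promoters. Bcl2a1b was the other of the 3 genes, but it held the form TGAATCA, which is not TGA(G/C)TCA. The narrower core was not counted over all promoters. Binding of AP-1 factors to these promoters was not tested. Among the promoters without TGANTCA were those of Itgb1, S100a4, S100a6, Tnfrsf4 and Tigit.
S100a11, chr3:93520246-93520545, plus strand: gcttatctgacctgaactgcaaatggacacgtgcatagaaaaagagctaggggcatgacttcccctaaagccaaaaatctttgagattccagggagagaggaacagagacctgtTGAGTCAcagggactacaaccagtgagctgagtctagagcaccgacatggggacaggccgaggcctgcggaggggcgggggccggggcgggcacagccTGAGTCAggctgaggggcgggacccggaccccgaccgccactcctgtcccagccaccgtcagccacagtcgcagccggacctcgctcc
Anxa2, chr9:69453433-69453732, plus strand: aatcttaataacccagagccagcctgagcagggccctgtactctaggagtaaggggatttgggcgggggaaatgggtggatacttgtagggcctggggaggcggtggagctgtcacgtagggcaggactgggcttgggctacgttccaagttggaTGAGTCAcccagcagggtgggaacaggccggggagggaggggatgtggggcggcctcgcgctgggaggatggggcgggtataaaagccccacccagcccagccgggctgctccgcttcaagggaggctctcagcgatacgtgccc
The AP-1 subunit Junb itself was at 158 and 191 CPM in medLN and 125 and 129 in MLN (log2 fold change 0.40 ± 0.06, adjusted p = 0.00259). It was the only one of 29 tested early-response genes that passed, beside 0.503% of all genes called higher.

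Treg genes formed the second block. Of 19 tested members 6 were higher in medLN and 0 lower, with 18 of 19 fold changes above 0 and a median of 0.25. Over all genes tested 0.503% were higher, and 49.3% of the fold changes lay above 0. DESeq2 called 0 of the 19, with or without its own filter. The costimulatory receptor Tnfrsf4 (OX40) was at 130 and 176 CPM in medLN and 73.5 and 67.9 in MLN, a log2 fold change of 1.04 ± 0.09 (adjusted p = 1.15e-05). In edgeR with robust estimation Tnfrsf4 did not pass (adjusted p = 0.294). The inhibitory receptor Tigit was at 25.8 and 32.8 against 9.27 and 13.4 CPM (1.32 ± 0.12, adjusted p = 3.62e-05). The transcription factor Helios (Ikzf2), common in thymus-derived Tregs, was at 94.4 and 112 against 68.2 and 61.8 CPM (0.61 ± 0.08, adjusted p = 0.00075). The inhibitory receptor Ctla4 passed with a smaller difference, 87.3 and 104 against 60.1 and 76.9 CPM (0.43 ± 0.07, adjusted p = 0.00341). Nrp1 and Capg were the other members that passed. Without the cells that held a Foxp3 UMI, 2 of 18 tested members were higher (Tnfrsf4 and Nrp1) and 0 lower. Of those 18 fold changes 12 lay above 0, with a median of 0.16. Foxp3 itself overlapped, with 57.9 and 78.3 CPM in medLN and 48.8 and 62.8 in MLN (adjusted p = 0.249), and so did not pass. The costimulatory receptor Icos, counted among follicular helper genes here and also expressed by Tregs, was at 114 and 138 against 75.9 and 86.9 CPM (0.57 ± 0.06, adjusted p = 0.00012).

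Lower in medLN were several genes of resting T cells. Dtx1 (Deltex1), a target of Notch signalling, was at 75.9 and 106 CPM in medLN and at 144 in each MLN sample, a log2 fold change of -0.73 ± 0.08 (adjusted p = 0.000218). The 8 tested GIMAP genes are small GTPases of lymphocytes that lie together on chromosome 6. After TMM scaling of the sample totals (factors 1.017 and 1.021 in medLN, 0.994 and 0.969 in MLN) all 8 fold changes lay below 0 in both mice. Their median was -0.21, and 49.3% of all genes tested lay above 0. In unscaled CPM Gimap1 was higher in medLN in both mice (288 and 301 against 283 and 295), and Gimap5 and Gimap9 in mouse 2. Of the 8, 2 passed, beside 0.112% of all genes called lower. Gimap6 (48701582 to 48708225, minus strand) was at 345 and 356 against 406 and 428 CPM (-0.31 ± 0.05, adjusted p = 0.00492), and Gimap3 at 514 and 506 against 576 and 578 CPM (-0.23 ± 0.05, adjusted p = 0.0342). Of the 19 tested genes of the naive and quiescence list 17 were below 0 after the same scaling, with a median of -0.12. Over all genes tested 49.3% lay above 0. From this list Lef1, a transcription factor of naive T cells (494 and 469 against 558 and 537 CPM), and Igfbp4 (549 and 616 against 607 and 713 CPM) passed, with log2 fold changes of -0.24 and -0.23 and adjusted p of 0.0274 and 0.0395. These fold changes were small, and neither gene passed without the mouse block (adjusted p = 0.185 and 0.676). The genes for entry into and exit from lymph nodes held 0 calls among 14 tested, in edgeR and in DESeq2, with 3 at an unadjusted p under 0.05 in edgeR (median -0.00353). Of all 10739 genes tested 915 had such an unadjusted p. Ccr7 stood at 344, 330, 351 and 332 CPM in medLN 1, medLN 2, MLN 1 and MLN 2.

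The serine protease granzyme A (Gzma) had a log2 fold change of -2.29 ± 0.16 (adjusted p = 9.76e-07), but its samples overlapped, with 8.13 and 22.4 CPM in medLN and 21.1 and 129 in MLN. In MLN of mouse 2 51 cells held its 1033 UMIs, and in medLN of mouse 2 a single cell held 130 of 179. Without the block the adjusted p of Gzma was 0.567.

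**Figure D3:**
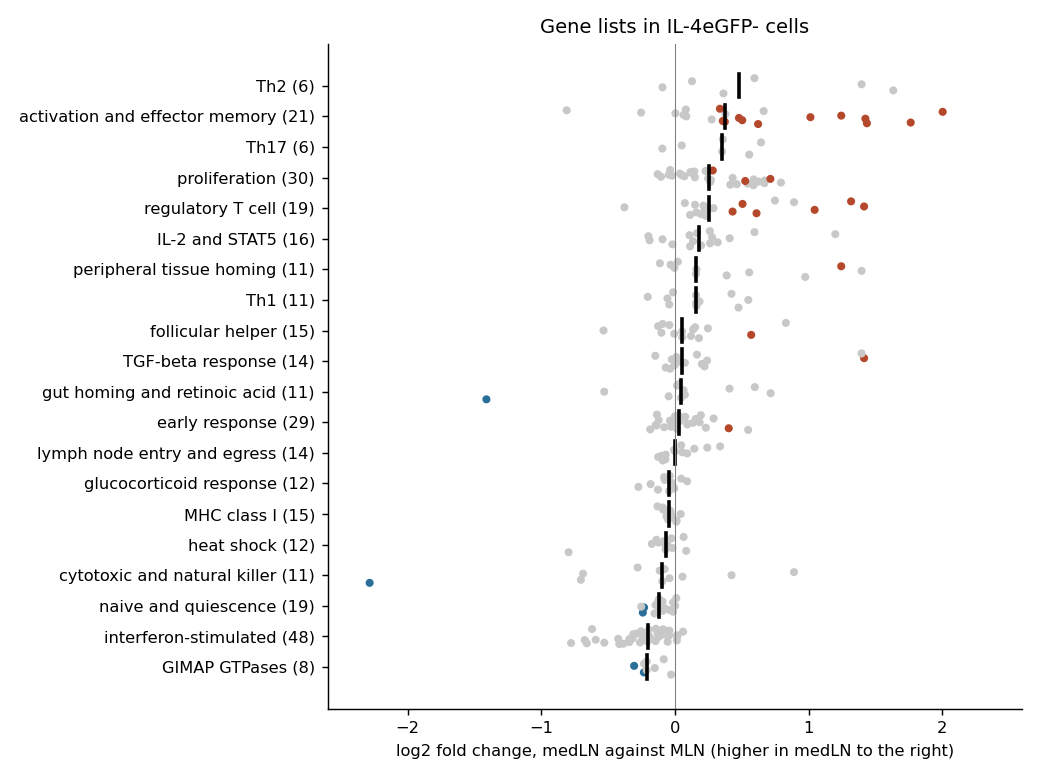
Log2 fold change of medLN against MLN for the tested members of each of 20 gene lists (number tested in parentheses), with members higher in medLN at adjusted p below 0.05 in red, lower in blue, others in grey and the median as a black bar. Calls gather in the activation and effector memory list and the regulatory T cell list on the right, while the GIMAP and interferon-stimulated lists have the lowest medians.

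The remaining lists held few calls or none. Of 48 tested interferon-stimulated genes 0 passed in edgeR or in DESeq2, with 19 at an unadjusted p under 0.05 in edgeR, although 44 of 48 lay below 0 with a median of -0.20. Over all genes tested 49.3% of the fold changes lay above 0, and 915 of 10739 genes had an unadjusted p under 0.05 in edgeR. Only 10 of the 48 lay below 0 in both mice. The list summed to 6290 CPM in medLN of mouse 1, 4879 in medLN of mouse 2, 5651 in MLN of mouse 1 and 6090 in MLN of mouse 2, so that medLN held both the highest and the lowest sample. Ifit3, an antiviral protein that interferon induces, was at 30.5 and 13.3 CPM in medLN and 25.8 and 40.2 in MLN.

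Of the Th1, Th2 and Th17 lists 0 of 11, 0 of 6 and 0 of 6 tested genes passed in edgeR or in DESeq2. In edgeR 1, 4 and 2 had an unadjusted p under 0.05. Their median log2 fold changes were 0.157, 0.479 and 0.355, with 7, 5 and 5 genes above 0. In both mice 2, 5 and 4 lay above 0. Over all genes tested 49.3% of the fold changes lay above 0. With so few genes, the absence of calls does not show that the organs were alike for these lists. Gata3, the main transcription factor of Th2 cells, was at 40.4 and 43.4 CPM in medLN and 30.9 and 31.8 in MLN (adjusted p = 0.0791). The IL-2 and STAT5 (16 tested, 9 at an unadjusted p under 0.05), glucocorticoid response (12 and 1), MHC class I (15 and 0) and heat shock (12 and 3) lists had 0 calls in both tools as well. Of the 16 IL-2 and STAT5 genes 12 lay above 0, with a median of 0.18. The medians of the glucocorticoid response, MHC class I and heat shock lists were -0.042, -0.045 and -0.070. In each of 4 further lists 1 gene passed in edgeR. These were Nrp1 in the TGF-beta response list (14 tested), Itgb1 in peripheral tissue homing (11 tested), Icos in the follicular helper list (15 tested) and, lower in medLN, Gzma in the cytotoxic and natural killer list (11 tested). Among all genes tested 0.503% were higher and 0.112% lower. Itgb1 and Nrp1 are also counted in the activation and Treg lists above.

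Several called genes belonged to no list. The activation marker Cd83 was at 37.5 and 41.8 CPM in medLN and 24.7 and 19.5 in MLN (log2 fold change 0.79 ± 0.11, adjusted p = 0.00172). Rilpl2, a protein of vesicle transport, was at 47.7 and 49.5 against 31.9 and 30.5 CPM (0.59 ± 0.08, adjusted p = 0.00179). Irf4, a transcription factor induced by antigen receptor signals, was at 25.8 and 23.5 against 17.4 and 8.36 CPM (0.90 ± 0.17, adjusted p = 0.0166). All 3 genes were higher in both medLN samples than in both MLN samples. Of all genes tested 37.5% stood apart in this way in either direction. Without the Foxp3-positive cells Rilpl2 and Irf4 did not pass in edgeR (adjusted p = 0.166 and 0.0738).

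Il1r2, the decoy receptor for interleukin 1, was at 7.50 and 11.3 against 2.6 and 0.998 CPM (2.31 ± 0.33, adjusted p = 0.00201). The fatty acid binding protein Fabp5 was at 53.2 and 58.5 against 35.4 and 42.8 CPM (0.46 ± 0.08, adjusted p = 0.0093). Neither overlapped between organs, as for 37.5% of all genes tested, but without the Foxp3-positive cells Fabp5 had a log2 fold change of -0.055. Il1r2 was not among the genes tested without those cells. Up to 61.9% of the Il1r2 UMIs of a sample came from 1 cell. Without the highest cell of every sample Il1r2 was at 5.88 and 9.89 against 0.990 and 0.625 CPM. The enkephalin precursor Penk passed as well (1.31 ± 0.26, adjusted p = 0.0336), but 63.5% of its UMIs in medLN of mouse 2 came from 1 cell, and its levels of 6.50 and 30.5 against 5.69 and 7.74 CPM overlapped. Without the Foxp3-positive cells Penk was at -0.36 on the log2 scale, and without medLN replicate 2 at -0.098. Among the genes lower in medLN, Dtx4, a relative of Dtx1, was at 1.5 and 1.75 against 4.70 and 4.49 CPM (-1.54 ± 0.33, adjusted p = 0.0464), and Acp5 at 172 and 189 against 201 and 214 CPM (-0.26 ± 0.05, adjusted p = 0.0372).

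Ribosomal protein genes, a group chosen after the values were seen, shifted together by a small amount. Of 82 tested 80 lay below 0, with a median log2 fold change of -0.12 (-0.083 in mouse 1 and -0.16 in mouse 2), and 0 passed in edgeR. Over all genes tested 49.3% of the fold changes lay above 0. They took 32.4% and 32.1% of the UMIs in medLN and 33.6% and 34.1% in MLN. DESeq2, which called 4 genes higher and 38 lower in medLN, had 30 ribosomal protein genes among the 38.

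Some calls came from a few barcodes of other cell types. Siglech and Klk1, genes of plasmacytoid dendritic cells, had 20 and 32 UMIs and 35 and 17 UMIs in medLN 1 and medLN 2 and 0 in both MLN samples. In medLN 4 barcodes without CD3 held all of the Klk1 UMIs and all but 1 of the 52 Siglech UMIs. Jchain, Igkc, Ighg1 and Slpi, expressed by plasma cells or other secretory cells, passed with most UMIs in few barcodes as well. In medLN of mouse 1 one barcode held 1478 of 1738 Slpi UMIs and one held 705 of 1125 Ighg1 UMIs. The plasma cell markers summed to 322 CPM in medLN 1, 47.9 in medLN 2, 9.89 in MLN 1 and 27.6 in MLN 2. Igkv17-121 had 2127 of 2134 UMIs of medLN 2 in 1 barcode, and without that sample its log2 fold change was -2.82. Ly6d, a B cell and dendritic cell gene, had 88 of 126, 92 of 92, 17 of 19 and 34 of 36 UMIs in barcodes without CD3 in medLN 1, medLN 2, MLN 1 and MLN 2. Of the summed marker lists, B cell genes ranged from 408 to 766 CPM, myeloid genes from 121 to 154, erythroid genes from 0 to 0.375 and exocrine pancreas genes from 0 to 3.00, and S100a8 and S100a9 of neutrophils were at 0. When the 66 barcodes without CD3 were left out, 58 of the 66 genes could still be tested, 56 kept their direction and 53 passed. In that setting, chosen after the data were seen, 203 genes passed in all. There the fit found no spread above its trend, so that genes passed more easily than in the main fit.

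Cells with at least 1 Foxp3 UMI were examined as a group of their own. They made up 10.3% (95% exact binomial interval 9.05 to 11.6) and 12.6% (11.2 to 14.0) of medLN cells and 8.44% (7.33 to 9.66) and 10.9% (9.64 to 12.3) of MLN cells in mice 1 and 2, or 231, 279, 191 and 240 cells. The intervals cover counting error only. Within each mouse medLN had the larger share, by 1.74 ± 0.134 percentage points (mean and SD, n = 2 mice), but the highest MLN share was above the lowest medLN share. In 2 against 2 samples an exact permutation test cannot give a two-sided p below 0.333. Thinned to 2000 UMIs per cell the shares fell to 6.6% and 8.6% in medLN and 5.9% and 7.7% in MLN, and the difference was 0.80 percentage points. Detection of Foxp3 thus depended on depth, and cells without a Foxp3 UMI can include Tregs. In IL-4eGFP+ cells, with a median of 3168 to 3645.5 UMIs per cell, 1.02% and 1.34% of medLN and 2.70% and 3.23% of MLN cells held a Foxp3 UMI, so that there MLN had the larger share in both mice. The Foxp3 level of the IL-4eGFP+ cells was lower in medLN (log2 fold change -1.04, adjusted p = 0.0342), and the gate-by-organ term of Foxp3 was 1.26 ± 0.19 (adjusted p = 0.0416).

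Proliferation transcripts separated the organs within the Foxp3-positive cells. The proliferation marker Mki67 was detected in 23 of 231 (9.96%, 95% exact interval 6.42 to 14.6) and 27 of 279 (9.68%, 6.47 to 13.8) Foxp3-positive medLN cells, against 3 of 191 (1.57%, 0.325 to 4.52) and 9 of 240 (3.75%, 1.73 to 7.0) in MLN. Among Foxp3-negative cells the shares were 1.14% and 1.65% in medLN and 1.30% and 1.63% in MLN. The organs were thus apart in the Foxp3-positive cells and overlapped in the others, although the difference between the 2 cell groups was not tested. Summed over the Foxp3-positive cells, 27 of 30 tested proliferation genes were higher in medLN and 0 lower (median log2 fold change 1.10, over all 7888 genes -0.00931). Of all 7888 genes 247 were higher and 192 lower. Top2a, a DNA topoisomerase of dividing cells, was at 228 and 225 CPM in medLN and 59.8 and 84.5 in MLN of that group. With the Foxp3-positive cells left out, 0 of 30 proliferation genes were higher in medLN and 6 were lower (median -0.28). Of all 10455 genes in that setting 22 were higher and 14 lower. Among the 6 were Top2a, Ube2c, Birc5 and Rrm2 with log2 fold changes of -0.59, -0.96, -0.82 and -0.77 (adjusted p = 0.0346, 0.018, 0.0148 and 0.0155 in edgeR). In the unsplit samples 3 of 30 were higher, beside 0.503% of all genes, and Mki67 did not pass (adjusted p = 0.0552). The histone gene Hist1h1b and the replication factor Pclaf, both called higher in the unsplit samples, turned to log2 fold changes of -0.81 and -0.35 without the Foxp3-positive cells.

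**Figure D4:**
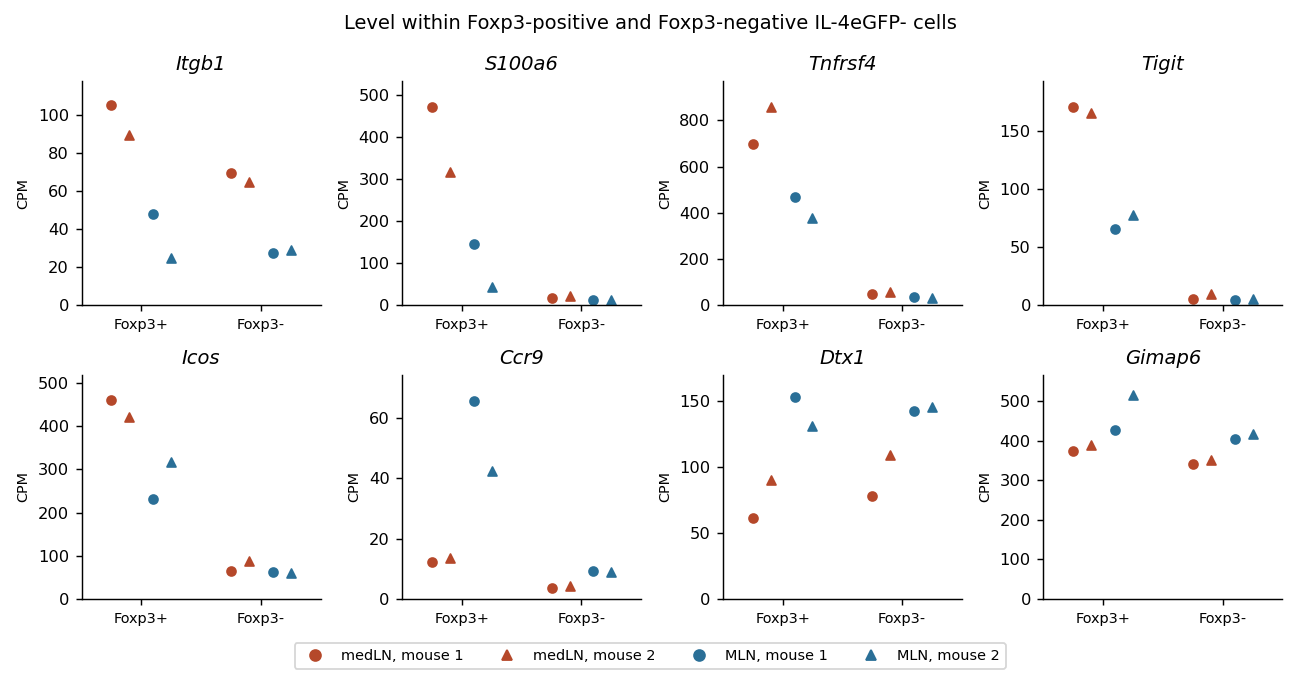
CPM of 8 genes within Foxp3-positive and Foxp3-negative cells, each axis starting at 0, 1 point per organ and mouse, medLN red, MLN blue, circles mouse 1, triangles mouse 2. S100a6 and Tigit reach their highest levels in Foxp3-positive cells, and the organs stand apart for Itgb1 and Dtx1 in both groups.

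In the Foxp3-positive cells 439 of 7888 genes passed (5.57%), 247 higher and 192 lower in medLN. These sums hold far fewer cells, the fit found no spread above its trend, and the count was 310 without the mouse block, 67 with DESeq2 and 0 (0%) without the filter on low counts, with 952 at an unadjusted p under 0.05. S100a6 was at 470 and 318 CPM in these cells of medLN and 146 and 43.4 of MLN, and this group held 80.3% and 71.6% of the S100a6 UMIs of medLN. Galectin-1 (Lgals1) was at 898 and 840 against 439 and 292 CPM, a log2 fold change of 1.20 that DESeq2 also called (adjusted p = 2.02e-09). S100a4 was at 87.1 and 95.7 against 29.2 and 1.17 CPM, the last value being 1 UMI. Tigit was at 170 and 165 against 65.6 and 77.4 CPM, and Ccr9 at 12.2 and 13.5 against 65.6 and 42.2 CPM. Ctla4 and Ikzf2, in contrast, did not pass in this group (484 and 511 against 436 and 478 CPM for Ctla4, and 473 and 501 against 426 and 385 CPM for Ikzf2). Of 20 tested Treg genes 6 were higher and 3 lower in medLN of this group, with a median of 0.12. Foxp3, whose UMIs chose the cells, was itself among the 3 lower genes (-0.30, adjusted p = 0.04 in edgeR). The count and the median include Foxp3, which is not read as an organ difference here. Of the naive and quiescence list 7 of 19 tested genes were lower in medLN and 0 higher (median -0.36), and of 45 tested interferon-stimulated genes 15 were lower and 1 higher (median -0.43).

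Without the Foxp3-positive cells 36 of 10455 genes passed (0.344%), and 24 of the 66 were among them. Itgb1 (log2 fold change 1.21, adjusted p = 2.9e-08), Nrp1 (1.37, 0.000591), Cd83 (1.02, 0.000151), Tnfrsf4 (0.62, 0.00177), Ahnak (0.81, 0.0121), Dtx1 (-0.68, 2.77e-05), Gimap6 (-0.29, 0.00413) and Ccr9 (-1.24, 0.0147) still passed. S100a6 (0.58, adjusted p = 0.161), S100a4 (0.70, 0.223), Tigit (0.59, 0.605) and Lgals1 (0.08, 0.899) did not. The log2 differences of S100a6 and Tigit were thus smaller without these cells than the 1.76 and 1.32 in all cells. Those of Itgb1, Nrp1 and Dtx1 were within their SE of the values in all cells. The 24 also included Igkc, Slpi, Jchain, Lyz2, Klk1, Siglech, Ly6d and Ly6c2. In medLN of mouse 1 most UMIs of each of these genes came from barcodes without CD3. With those barcodes left out of all cells, Igkc, Slpi, Jchain, Lyz2 and Ly6c2 did not pass. Klk1, Siglech and Ly6d were not among the genes tested there. The 24 thus do not all stand for T cells. Because Foxp3 is missed in some cells, the remaining cells can include Tregs, and whether the remaining differences lie in other cells was not tested.

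The Foxp3-negative cells, 2017 and 1942 in medLN and 2072 and 1960 in MLN, held most of the Itgb1 and Dtx1 UMIs. Itgb1 was at 69.6 and 65.0 CPM in these cells of medLN and at 27.4 and 29.3 CPM in those of MLN. Dtx1 was at 77.9 and 109 against 143 and 146 CPM, and a Dtx1 UMI was found in 19.4% and 26.4% of Foxp3-negative medLN cells and in 33.5% and 36.0% of those of MLN. Both genes stood apart between organs without overlap, as did 37.5% of all genes tested in the unsplit samples.

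Of the activation markers, Cd83 was at 25 CPM in Foxp3-negative cells of both medLN samples and at 12.3 and 11.6 in those of MLN, and Tnfrsf4 at 49.7 and 58.1 against 37.1 and 30.9 CPM. Cd83 is also a gene of mature dendritic cells. In all cells its log2 fold change was 0.83 with barcodes lacking CD3 left out, and thus as large as with them. S100a6 in the Foxp3-negative cells was at 16.3 and 21.9 against 12.8 and 11.9 CPM, a far smaller gap than in the Foxp3-positive cells.

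In the 81 S100a4-positive Foxp3-negative cells (29, 23, 18 and 11) 0 of 1133 genes passed in edgeR (0%), 62 had an unadjusted p under 0.05, and DESeq2 called 0, with 2 at an unadjusted p under 0.05. Without the filter on low counts 7 genes passed in edgeR. Barcodes without CD3 were not removed from this group.

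**Figure D5:**
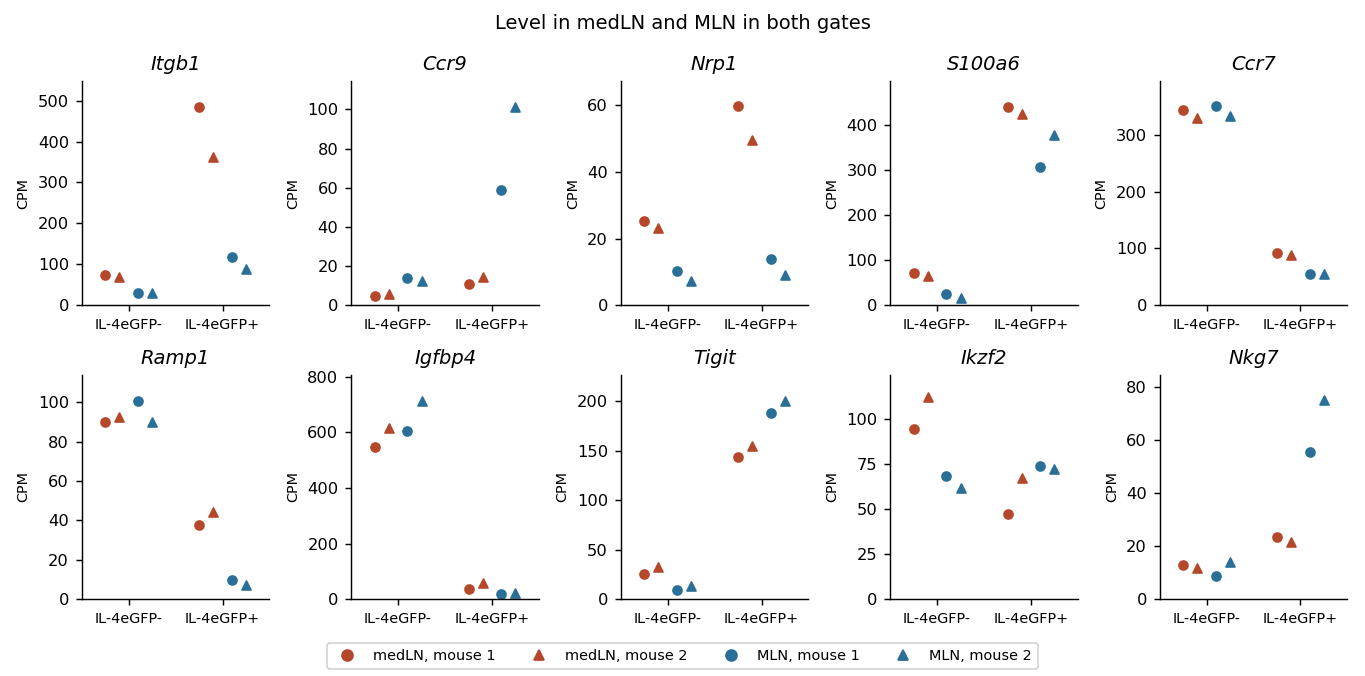
CPM of 10 genes in IL-4eGFP- and IL-4eGFP+ cells, 1 point per organ and mouse, medLN red, MLN blue, circles mouse 1, triangles mouse 2, each axis starting at 0. Itgb1, Nrp1 and Ccr9 differ in the same direction in both gates, while Ccr7 and Ramp1 stand apart between organs in the IL-4eGFP+ cells and lie together in the IL-4eGFP- cells.

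The organ difference of the IL-4eGFP- cells was set beside that of the IL-4eGFP+ Th2 cells of the same nodes, in which 272 of 11312 genes passed (2.40%). Of the 66 genes 64 could be tested there, and 21 passed in the same direction and 4 in the opposite one. Itgb1 was at 484 and 363 CPM in medLN and 119 and 88.6 in MLN of the IL-4eGFP+ cells, a log2 fold change of 2.02 that was larger than in the IL-4eGFP- cells (gate-by-organ term -0.78 ± 0.09, adjusted p = 0.0128). Ccr9 (10.9 and 14.5 against 58.8 and 101 CPM) and Nrp1 (59.7 and 49.5 against 13.8 and 8.96 CPM) went the same way as in the IL-4eGFP- cells, and their gate-by-organ terms did not pass (adjusted p = 0.117 and 0.0865). S100a6 and Tnfrsf4 differed more in the IL-4eGFP- cells: the gate-by-organ terms were 1.42 ± 0.17 and 0.94 ± 0.10 (adjusted p = 0.0173 and 0.0128), and in the IL-4eGFP+ cells neither passed (adjusted p = 0.0677 and 0.437).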

How the data were processed

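IL-4eGFP- and IL-4eGFP+ CD4+ T cells of medLN and MLN of 2 mice were profiled by droplet single-cell RNA sequencing with hashtags. The authors deposited UMI counts per gene and barcode made with Cell Ranger 6.1.2 on mm10 (GRCm38), per the submitters' processing notes, with the barcode list (suffix 2 for the IL-4eGFP- library) and feature list. The cells, gene lists and named genes were chosen with earlier results of these data known. Barcodes were filtered as stated above and assigned by hashtag, which removes doublets between samples; no doublet caller was run. Counts were summed per sample and 269 T-cell receptor genes were left out of tests and library sizes, and CPM are per 1000000 of these UMIs. Genes passing filterByExpr were tested with edgeR 4.0.16 (TMM, quasi-likelihood, mouse as block), with DESeq2 1.42.0 as an alternative. The procedure was tested on simulated data. The mouse pairs samples because same-numbered samples come from the same animal; their deviations from the organ means correlated weakly (r = 0.088 over 10739 genes). The 2 organs and mice share 1 library, and only 2 animals were sampled. The p-values rest mostly on spread shared across genes (13.81 prior degrees of freedom in the main fit, beside 1 residual). They do not measure how well a difference repeats between animals. Genes named were the 15 per direction with the largest fold change at 20 CPM or more, the same direction in both mice and adjusted p below 0.05, list members past the threshold, and genes that define a list; other genes were named after their values were seen. Shares have 95% Clopper-Pearson intervals. The lung and MLN run of other mice and the TCR contig files were not used here. Some genes, and 1 group of cells defined with such a gene, are not reported here.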

Additional observations from a re-analysis of the deposited data

Results flagged for a closer look

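For 67 of 11533 genes (0.581%) the organ difference itself differed between IL-4eGFP- and IL-4eGFP+ cells (gate-by-organ term of edgeR's quasi-likelihood test, adjusted p below 0.05). The term is the log2 fold change of medLN against MLN in IL-4eGFP- cells minus that in IL-4eGFP+ cells, and genes with the smallest p at 20 CPM or more are given. The chemokine receptor Ccr7 (-0.77, adjusted p = 0.00531) and Ramp1, a partner protein of the receptor for the neuropeptide CGRP (-2.39, adjusted p = 0.000731), passed in the IL-4eGFP+ cells, where both were higher in medLN (adjusted p = 0.00106 and 3.83e-05), and not in the IL-4eGFP- cells (adjusted p = 0.794 and 0.686). Igfbp4 had a term of -1.56 (adjusted p = 0.00139), since it was lower in medLN of the IL-4eGFP- cells (log2 fold change -0.23) and higher in medLN of the IL-4eGFP+ cells (1.32).

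Tigit ran the opposite way, with a term of 1.71 (adjusted p = 0.00136). It was higher in medLN of the IL-4eGFP- cells (log2 fold change 1.32) and lower there in the IL-4eGFP+ cells (144 and 155 CPM against 189 and 200, -0.39, adjusted p = 0.00531). Helios (Ikzf2) had a term of 0.98 (adjusted p = 0.00741), and in the IL-4eGFP+ cells it did not pass (adjusted p = 0.153). The cytotoxic granule gene Nkg7 had a term of 1.60 (adjusted p = 0.0105), from 23.4 and 21.6 CPM in medLN and 55.2 and 74.9 CPM in MLN of the IL-4eGFP+ cells.

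The immunoglobulin genes Igkv4-57 (12.51) and Igkc (5.15) and the MHC class II invariant chain Cd74 (0.75) also passed, at adjusted p of 7.72e-08, 0.000831 and 0.00986. Igkv4-57 was at 523 CPM in medLN of mouse 1 and at 0.125 CPM in medLN of mouse 2 of the IL-4eGFP- cells. Without barcodes lacking CD3 the Igkc term was 0.99 and no longer passed (adjusted p = 0.52), while the Cd74 term was 1.44 and passed (adjusted p = 1e-05). With all barcodes Cd74 did not pass between organs in the IL-4eGFP- or the IL-4eGFP+ cells (adjusted p = 0.427 and 0.467 in edgeR). Its levels overlapped in both, with 253 and 139 against 121 and 150 CPM in IL-4eGFP- cells. In IL-4eGFP+ cells they were 189 and 142 CPM in medLN and 166 and 249 in MLN.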

How the results depend on the processing

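The count of genes that passed between medLN and MLN (66) depended strongly on the analysis. It was 17 without the replicate block on mouse, 42 with DESeq2 and 5 with DESeq2 without independent filtering, 258 without a filter on low counts, 30 at a mean of at least 20 CPM, 199 with a top hashtag of at least 95%, 118 with novelty above 0.8, 36 without Foxp3-positive cells, 26 with equal cell numbers, 38 in 1 fit of all 8 samples and 203 without barcodes lacking CD3. Leaving out 1 sample each gave 5 to 120. The fits that gave 258, 199 and 203 calls found no spread above their trend. The gate-by-organ count (67) became 17 with DESeq2, 149 without the filter and 105 without barcodes lacking CD3. Within Foxp3-positive cells DESeq2 gave 67 and no filter 0; within S100a4-positive cells no filter gave 7. The medLN minus MLN share was 0.80 points for Foxp3-positive cells after thinning and 0.596 for S100a4-positive Foxp3-negative cells at a top hashtag of 95%. All 66 genes kept their direction without the block, with DESeq2 and with DESeq2 size factors. Only 7 of the 66 were among the 42 DESeq2 calls, and 5 were called by DESeq2 without independent filtering. With that filtering DESeq2 gave no adjusted p for 10202 of the 10739 genes. Among the 66 genes direction reversed for Slpi (-0.68), Jchain (-0.97) and Hist1h1d (-0.011) without cells of other types and the deepest 2%, for Jchain (-0.097) and Lyz2 (-0.047) without barcodes lacking CD3, for Lyz2 (-0.17) at a top hashtag of 95%, for Hist1h1b (-0.81), Penk (-0.36), Pclaf (-0.35), Hist1h1d (-0.11), Fabp5 (-0.055), Hist1h1e (-0.017) and H2afz (-0.0043) without Foxp3-positive cells, for Hist1h1d (-0.14) and Hist1h1e (-0.016) without S100a4-positive and Mki67-positive cells, and for Igkv17-121 (-2.82) and Penk (-0.098) without medLN replicate 2. The alternatives on barcodes lacking CD3, robust estimation (44 passed, 43 shared), S100a4-positive and Mki67-positive cells left out (55) and DESeq2 without independent filtering were chosen after seeing the data. For the other shifts the cause was not tested. Depth limits low-level genes, such as Ccr9 with 37 to 113 UMIs per sample.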
